A study of Mus musculus with 4 samples.

Results

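The *Rab* genes encode small GTPases that steer vesicle traffic between the compartments of the cell. They were taken as every symbol of the deposited count table made of Rab, a number and at most a letter and a digit, which found 57 of 23337 genes and left out effectors such as the *Rab11fip* genes. All 57 passed the filter on low counts and were tested among 18547 genes. The cells were medullary thymic epithelial cells (mTECs) of 4-week-old C57BL/6 mice, sorted as CD45-EpCAM+UEA-1+Ly51- cells, in 2 libraries labelled wild type (WT 1 and WT 2) and 2 labelled Sirt6-/- (called cKO, for conditional knockout, as cKO 1 and cKO 2). By the study's methods the latter carried *Foxn1*-Cre and Sirt6 loxp/loxp, so that deletion was driven in thymic epithelial cells, and the WT mice lacked the Cre. How many mice made up a library is not given in the sources used here, so p-values measure only the spread between these samples.

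A Rab protein is a molecular switch. Exchange factors load it with GTP on a membrane, where it recruits effectors such as motors and tethers. GTPase-activating proteins then end the active state, and a GDP dissociation inhibitor extracts the GDP-bound form, which sits in membranes through prenyl groups. Each Rab marks its own compartments, and epithelial cells use them for secretion, for apical and basolateral sorting and for recycling of surface receptors. mTECs also present self antigens on MHC class II molecules, which are loaded in late endosomal compartments and receive part of their peptides through autophagy.

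The libraries held between 61102704 and 65907745 counts. *Sirt6* itself was not lower in the libraries labelled cKO, where it had 882 and 835 counts, against 622 and 755 in WT (log2 fold change 0.37, standard error, SE, 0.32, edgeR adjusted p = 0.80). The table gives 1 count for the whole gene and does not separate the floxed exons from the rest, and each direction below rests on the labels. The mTEC markers *Epcam*, *Krt5*, *Krt14*, *Aire*, *Fezf2*, *Cd80* and *Cd74* had counts in every library. Their summed level ran from 12099 to 14621 CPM (counts scaled to library size by the TMM method). Most of it was *Cd74*, at 10101 and 12378 CPM in WT and 12169 and 9462 CPM in the libraries labelled cKO. *Epcam*, *Aire* and *Cd80* were higher in the libraries labelled cKO by an unadjusted p under 0.05. The log2 fold changes of *Krt5* (0.89) and *Krt14* (0.32) were positive and those of *Fezf2* (-0.20) and *Cd74* (-0.055) negative, without passing it. The summed level of 6 tuft cell markers was 530 and 614 CPM in WT and 295 and 298 CPM in the libraries labelled cKO. *Trpm5*, *Gnb3* and *Avil* were lower at the unadjusted p, and *Gnb3*, at 278 and 319 against 106 and 119 CPM, had the highest level of the 6 in every library. The log2 fold changes of *Pou2f3* (0.24) and *Dclk1* (0.36) were positive, and *Il25* had under 1 CPM in every library. Of 4 markers of *Ccl21a*-positive mTECs, *Ccl21a* was lower, at 865 ± 512 CPM in WT and 167 ± 41.6 CPM in those labelled cKO (SD, n = 2 each). The log2 fold changes of *Itgb4* (0.99), *Krt15* (0.16) and *Ly6a* (0.07) were positive and did not pass the unadjusted p. The 7 thymocyte markers summed to between 543 and 1076 CPM and the 8 markers of macrophages and dendritic cells to between 417 and 604 CPM. *Ptprc* alone gave 362 and 264 CPM of the latter in WT and 433 and 321 CPM in the libraries labelled cKO. RNA of both marker lists was thus in all 4 libraries, and which cells it came from was not tested. In such bulk samples fewer cells of a type and less RNA per cell cannot be told apart.

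The promoter of *Rab43* is shown because it is the member whose expression differed most, and that of *Rab1*, listed as *Rab1a* in the current annotation, because it is the most abundant member whose window holds the motif below and no annotated exon. Both are the 250 bases before the outermost transcription start in RefSeq on GRCm38.p6, read 5′ to 3′ on the strand of the gene. The first lies on chr6:87812165-87812414 on the minus strand and the second on chr11:20201162-20201411 on the plus strand. Capitals mark each match to GGGCGG on either strand, the GC box bound by Sp1-type factors.
Rab43: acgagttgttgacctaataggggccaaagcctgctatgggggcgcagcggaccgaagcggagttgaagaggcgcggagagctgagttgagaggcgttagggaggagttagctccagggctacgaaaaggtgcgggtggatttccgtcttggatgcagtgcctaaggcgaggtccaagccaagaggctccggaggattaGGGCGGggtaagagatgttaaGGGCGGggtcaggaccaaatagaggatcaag
Rab1: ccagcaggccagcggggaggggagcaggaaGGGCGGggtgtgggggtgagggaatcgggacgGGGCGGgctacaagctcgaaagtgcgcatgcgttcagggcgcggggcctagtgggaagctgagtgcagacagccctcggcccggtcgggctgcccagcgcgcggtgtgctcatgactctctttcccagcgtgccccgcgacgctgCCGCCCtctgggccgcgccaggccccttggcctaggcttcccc
The *Rab43* window held 2 GC boxes and the *Rab1* window held 3. RefSeq lists 4 starts for *Rab43*, of which this is the outermost.

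Windows of the same length were on hand for 47 of the 57 members and for 27025 genes in all. Those 27025 genes were not limited to genes expressed here, whereas the members all passed the filter on low counts. A share among expressed genes alone was not computed. GGGCGG was in 68.1% of the members' windows and in 33.0% of all windows. CCAAT was in 46.8% of the members' windows against 34.5% of all, and TATAAA in 6.38% against 13.0%. CACGTG, the E-box core, was in 8.51% against 6.04%, and the longer TCACGTGA, which contains it, was in 2 members, *Rab5a* and *Rab21* (4.26% against 0.803%). GAGGAA, the core of the ETS sites that SPIB binds, was in 12.8% of the members' windows against 23.1% of all. The NF-κB consensus was in 4.26% against 7.03%, in *Rab11a* and *Rab28*. *Rab43* had no match to any of the other motifs in this window. These are matches of letters on both strands and say nothing of binding.

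Most members were expressed in these cells. Levels are compared between genes as TPM, which is scaled to transcript length. In each library 37 or 38 members lay above 10 TPM and 3 or 4 below 1 TPM. The summed level of the 57 members was 4668 and 4491 TPM in the WT libraries and 4499 and 4925 TPM in those labelled cKO, which was between 0.449% and 0.493% of all TPM. The groups overlapped in this sum.

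The 8 highest members held 58.2% of it. *Rab1b*, which acts between the endoplasmic reticulum (ER) and the Golgi, was the highest in every library at 615 and 652 TPM in WT 1 and WT 2 and 540 and 611 TPM in cKO 1 and cKO 2. Sets of 4 values keep this order below. *Rab8a*, which carries cargo from the Golgi to the plasma membrane and the cilium, followed at 509, 442, 422 and 435 TPM. *Rab1* stood at 290, 347, 455 and 366 TPM. It ranked 6 in WT 1 but 2 in cKO 1, and both libraries labelled cKO lay above both WT libraries. *Rab11a*, the marker of recycling endosomes, had 294, 337, 336 and 355 TPM. *Rab7*, the Rab of late endosomes and lysosomes, had 318, 283, 282 and 317 TPM. *Rab4b*, of fast recycling from early endosomes, had 328, 326, 273 and 269 TPM, with both libraries labelled cKO below WT. *Rab1*, *Rab11a*, *Rab7* and *Rab4b* exchanged ranks 3 to 6 between libraries, apart from cKO 1, where *Rab1* ranked 2 and *Rab8a* 3, and their order does not stand out from the spread between replicates. Of the 50-base words of *Rab4b* 93.0% also occur in the readthrough gene *Gm21983*, and of those of *Rab7* 14.5% occur in *Rab7-ps1*, so their levels are uncertain to that extent. *Rab18*, of the ER and lipid droplets, reached 194, 150, 217 and 222 TPM. *Rab6a*, of retrograde traffic to and within the Golgi, reached 141, 154, 159 and 178 TPM. Its exons overlap those of *Mrpl48* on the other strand by 708 bases, and the strand setting of the counting is not given.

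**Figure D1:**
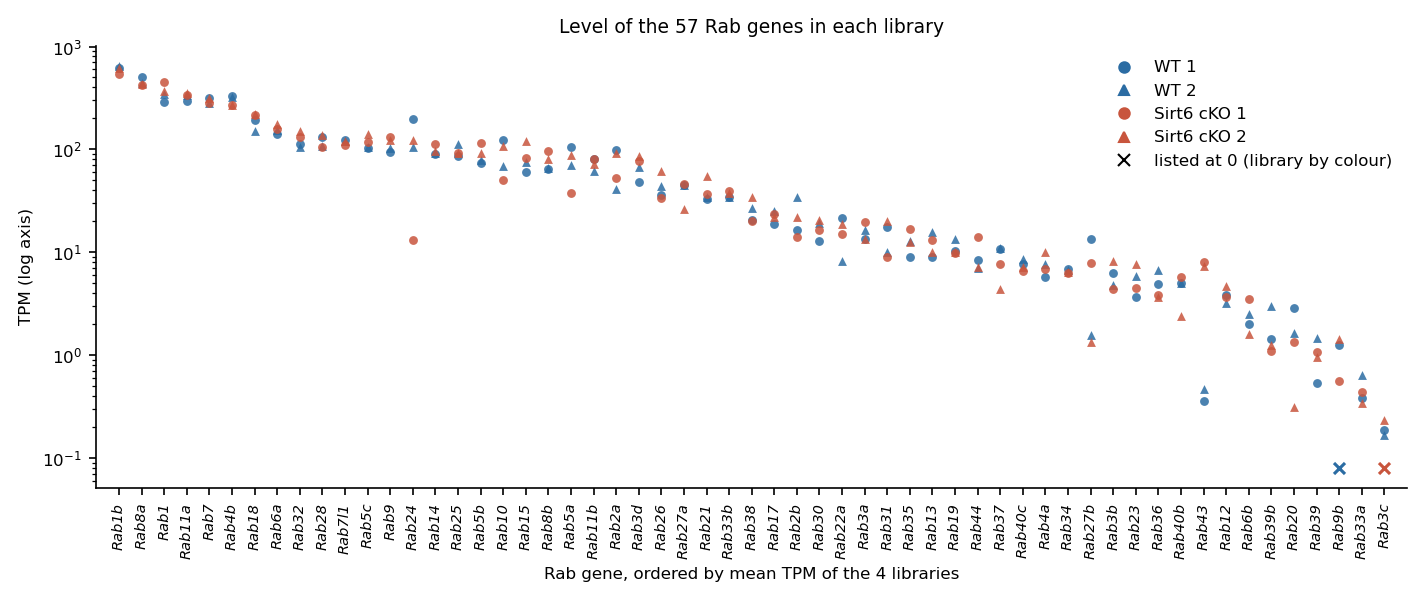
Level of each of the 57 *Rab* genes in TPM (log axis) in the 4 libraries, with genes ordered by their mean over all libraries; blue stands for WT, red for the libraries labelled cKO, circles for library 1 and triangles for library 2 of a group, and crosses for genes listed at 0. The points of most genes lie close together across a range from 652 TPM for *Rab1b* down to listed values of 0 for *Rab9b* and *Rab3c*, while *Rab43* splits by group.

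None of these 8 differed between the groups at an unadjusted p of 0.05. Their log2 fold changes (libraries labelled cKO over WT, here and below) were between -0.26 for *Rab4b* and 0.38 for *Rab1* (SEs 0.16 and 0.19). The 95% interval of the fold change lay within 2-fold in either direction for 20 of the 57 members (35.1%), against 25.6% of all genes tested. *Rab1b* (interval -0.51 to 0.25 on the log2 scale), *Rab8a* (-0.55 to 0.27), *Rab11a* (-0.25 to 0.53) and *Rab7* (-0.51 to 0.52) were among them.

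*Rab43* was the 1 member past the unadjusted p. It acts at the Golgi and is known for antigen cross-presentation in dendritic cells. Its counts were 50 and 62 in the WT libraries and 1022 and 986 in those labelled cKO. Both libraries labelled cKO thus stood far above both WT libraries, and the replicates of a group lay within 1.28-fold of each other. The level rose from 0.869 ± 0.149 to 16.2 ± 1.10 CPM, and from 0.415 ± 0.0813 to 7.67 ± 0.489 TPM (SD, n = 2 each). The log2 fold change was 4.21 (SE 0.41, 95% interval 3.19 to 5.23), which is 18.5-fold. Its unadjusted p of 9.01e-05 in edgeR's fit over all genes ranked 8 of 18547, and the adjusted p was 0.195. By fold change, highest first, *Rab43* ranked 115 of all genes tested. Among genes whose groups did not overlap and that had 10 or more counts in every library, it ranked 4 in that order. DESeq2 gave a log2 fold change of 4.20 and an adjusted p of 9.4e-15. *Rab43* held 0.497% of the TPM of the ER and Golgi members in the libraries labelled cKO, against 0.0290% in WT.

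Of the 8 markers of macrophages and dendritic cells, 0 were higher at an unadjusted p of 0.05 in edgeR (5.27% of all genes). At that threshold 2 were lower, *Cd68* and *Emr1* (3.32% of all genes, edgeR adjusted p = 0.541 and 0.550). Among the rest, *Ptprc* (0.27) and *Itgam* (0.57) had positive log2 fold changes. Those of *Itgax* (-0.20), *Csf1r* (-0.56), *Flt3* (-0.36) and *Xcr1* (-0.67) were negative. *Xcr1*, a marker of cross-presenting dendritic cells, had 631, 516, 213 and 490 counts. The part of these cells in the value of *Rab43* was not tested.

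*Rab43* lies on chr6:87788853-87812164 of GRCm38, the assembly of mm10, on the minus strand. Its exons share 4164 bases on the same strand with the readthrough gene *Gm45140*, which joins *Rab43* to the upstream gene *Isy1*, and 90.4% of its 50-base words also occur there. *Gm45140* has no row in the count table, so reads of such transcripts cannot be told from those of *Rab43*. *Isy1*, the splicing factor gene next to it, had 214, 171, 291 and 148 counts, with overlapping groups (log2 fold change 0.26, SE 0.64). Within 250 kb on either side the table held 11 protein-coding genes, of which 10 were tested, and *Rab43* alone passed the unadjusted p. *Cnbp*, a nucleic acid binding protein, had 61047, 99231, 97287 and 44782 counts, and *Rab7*, at the far end of this stretch, had 5985, 5038, 4870 and 5783 counts. Neither separated the groups.

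**Figure D2:**
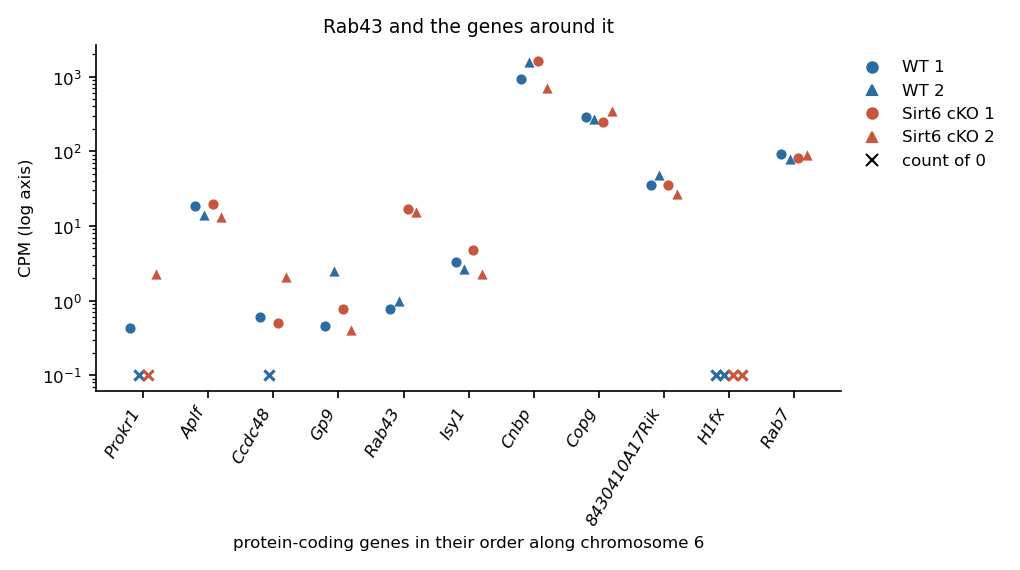
Level of *Rab43* and the other protein-coding genes within 250 kb, in their order along chromosome 6, in CPM (log axis) in each library; colours and symbols mark the group and library, and crosses mark counts of 0. *Rab43* rose from 0.869 to 16.2 CPM on average, while the points of *Isy1*, *Cnbp* and *Rab7* mix between groups.

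Across the whole family, 1 member was higher (1.75%) and 0 were lower at an unadjusted p of 0.05 in the edgeR fit. Over all genes tested, 5.27% were higher and 3.32% lower, so neither share of the members lay above that of all genes. This split of all calls depends on the scaling: 61.4% of them were higher here and 46.2% with library size alone. After adjustment over all genes 0 members passed in edgeR's fit, where 1 gene in all did (0.00539%). In DESeq2 *Rab43* alone passed the adjusted p, against 1.06% of genes higher and 0.822% lower, and its unadjusted p also called *Rab15*. In 15 members (26.3%) both libraries labelled cKO lay above both WT libraries, against 21.6% of all genes, and in 9 (15.8%) both lay below, against 20.3%. The median log2 fold change of the members was 0.12, or 0.10 without *Rab43*, beside -0.0047 over all genes tested. It was positive in all 12 alternatives, between 0.030 with library size alone, where the median of all genes was -0.093, and 0.14 without cKO 1.

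**Figure D3:**
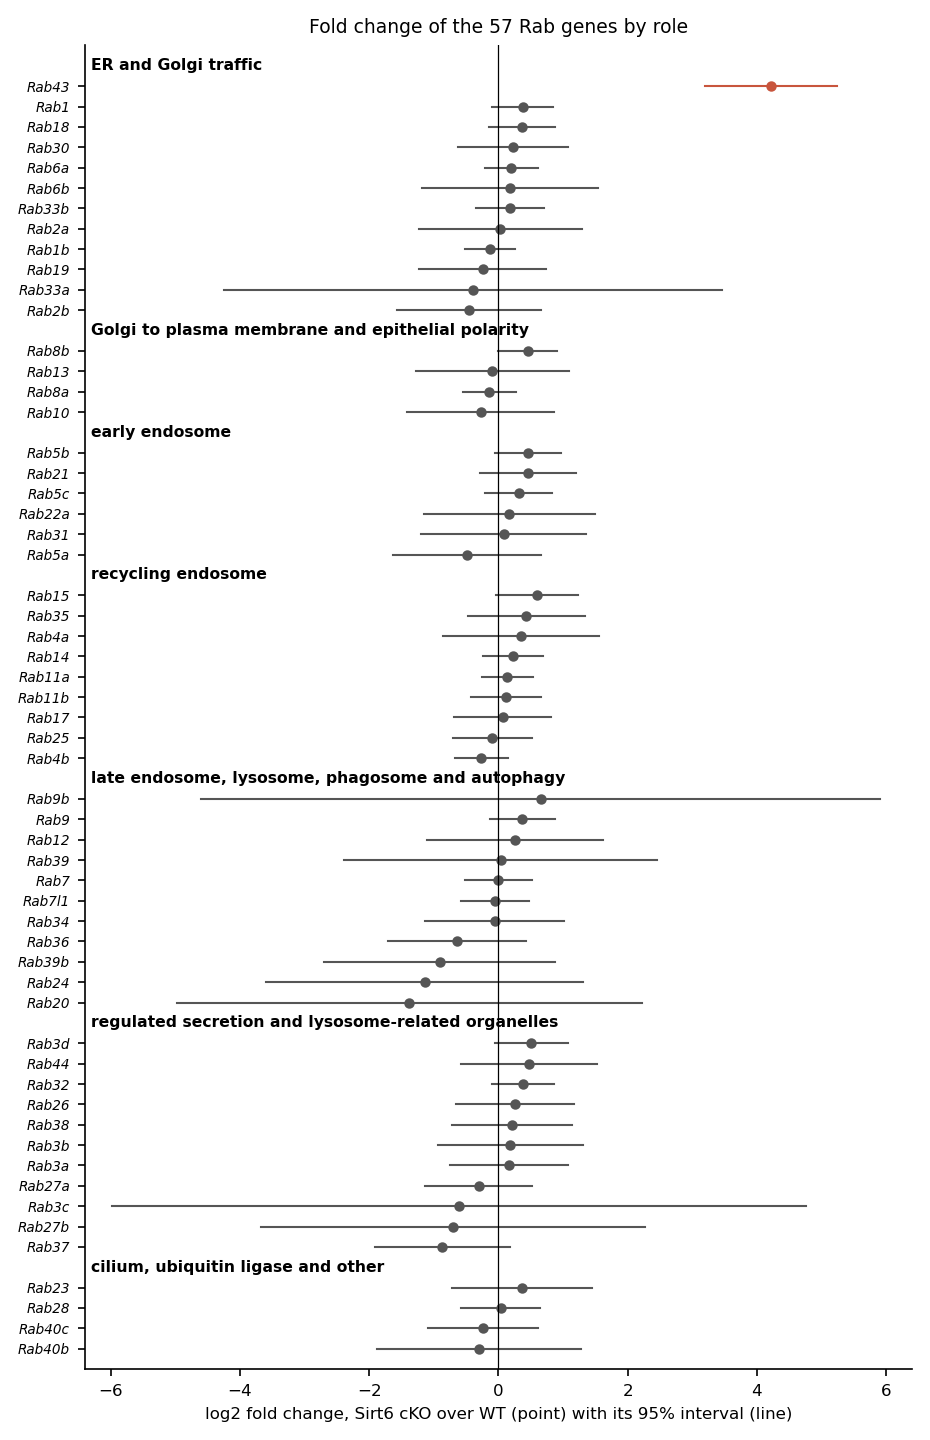
Log2 fold change of each *Rab* gene (libraries labelled cKO over WT) as a point with its 95% interval from edgeR as a line, grouped by role; red marks an unadjusted p under 0.05. *Rab43* at 4.21 is the only interval that lies away from 0, and the intervals of low or variable genes such as *Rab9b*, *Rab3c* and *Rab20* are wide.

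The Rabs of ER and Golgi traffic had a median log2 fold change of 0.18 over 12 members, of which 8 were positive. Apart from *Rab43* they ran from -0.45 for *Rab2b* to 0.38 for *Rab1*, and none of these passed the unadjusted p. Their summed level was 1416 and 1449 TPM in WT and 1516 and 1569 TPM in the libraries labelled cKO, which did not overlap. The sum for regulated secretion and lysosome-related organelles did not overlap either (316 and 330 TPM in WT, 362 and 395 TPM in those labelled cKO). The sums of the other role groups overlapped. Within the *Rab1* pair, *Rab1* held 32.0%, 34.7%, 45.7% and 37.4% of the TPM, so its share was higher in both libraries labelled cKO, while the sum of the pair overlapped between the groups (905, 999, 996 and 977 TPM). Of the 4 Rabs that serve transport to the plasma membrane and cell polarity, *Rab8b* came nearest to the threshold, with a log2 fold change of 0.45 (SE 0.18, unadjusted p = 0.0541 in edgeR's fit over all genes). It is named after its values were seen, as are the shares within families. *Rab8b* held 11.2%, 13.0%, 18.6% and 15.5% of the TPM of the *Rab8* pair.

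The early endosomal Rabs control uptake and the fusion of endocytic vesicles. Their median log2 fold change was 0.24 over 6 members, with 5 positive. *Rab5b* had 7065, 7117, 10224 and 8513 counts, with both libraries labelled cKO above WT (log2 fold change 0.46, SE 0.20, unadjusted p = 0.0695 in edgeR's fit). Of its 50-base words 13.0% also occur in *Gm13991*, so its level is uncertain to that extent. *Rab21*, which acts in integrin trafficking, had 1814, 1796, 1858 and 2939 counts. Its groups did not overlap, but cKO 1 stood beside the WT libraries and the log2 fold change of 0.45 (SE 0.30) was 0.12 without cKO 2. *Rab5a*, a close paralog of *Rab5b* named after its values were seen, had 7583, 4769, 2484 and 6134 counts. Its groups overlapped, and its share of the 3 *Rab5* genes was 37.4%, 27.7%, 13.9% and 27.6% of TPM. *Rab5b* held 25.9%, 30.7%, 42.6% and 28.5% of it and *Rab5c* held 36.7%, 41.6%, 43.5% and 43.9%. Without cKO 2, *Rab5a* passed the unadjusted p with a log2 fold change of -1.23.

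Among 9 Rabs of recycling endosomes the median log2 fold change was 0.14, and 7 were positive. *Rab15*, which regulates recycling of the transferrin receptor, had 5676, 6660, 7193 and 10957 counts. Both libraries labelled cKO lay above WT, though cKO 1 was nearer to WT 2 than to its own replicate. Its log2 fold change was 0.60 (SE 0.25, unadjusted p = 0.0584 in edgeR's fit over all genes). With cKO 2 left out it was 0.30, and with cKO 1 left out it was 0.84 and passed the unadjusted p. *Rab11a* (0.14, SE 0.16) and *Rab4b* (-0.26, SE 0.16), the abundant members of this group, did not pass the unadjusted p. In CPM both libraries labelled cKO lay above WT in *Rab11a* and below WT in *Rab4b*.

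The Rabs of late endosomes, lysosomes, phagosomes and autophagy had a median log2 fold change of -0.05 over 11 members, and they included the members with the most negative values. *Rab24*, which is linked to autophagy, had 11137, 5560, 676 and 6765 counts. cKO 1 stood apart from the other 3 libraries, and cKO 2 lay between the WT libraries. The log2 fold change was -1.14 (SE 0.98, adjusted p = 0.80 in edgeR's fit). Without cKO 2 it was -3.53 and passed the unadjusted p, and without cKO 1 it was -0.29. *Rab24* lies on chr13:55319743-55321946, and its exons overlap those of *Prelid1* on the other strand by 1258 bases. Without a statement on strand, the reads of these genes cannot be told apart there. *Prelid1*, named for this overlap, had 4435, 4311, 4764 and 4797 counts.

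*Rab20*, a Rab of phagosomes and of hypoxic cells, had 63, 34, 28 and 7 counts, with both libraries labelled cKO below WT. The gap between cKO 1 and cKO 2 was wider than the difference between the groups (log2 fold change -1.38, SE 1.43). *Rab39b*, which takes part in autophagosome formation, had 146, 291, 102 and 124 counts (log2 fold change -0.91, SE 0.71). *Rab36*, a Rab of late endosomes and the Golgi, had 388, 508, 278 and 279 counts (log2 fold change -0.64, SE 0.42). In both genes the libraries labelled cKO lay below WT, and neither passed the unadjusted p.

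*Rab9b*, a paralog of the late endosomal *Rab9*, had 142, 0, 58 and 158 counts. The count of 0 in WT 2 allows up to 3 counts. The fitted log2 fold change of 0.66 (SE 2.09) reads no direction, since it turned to -0.34 without WT 2 and to -0.18 without cKO 2. Without WT 1 it passed the unadjusted p, at least 36.3-fold higher than 3 counts in WT 2. *Rab9* itself, named as its paralog, had 94.5, 104, 132 and 123 TPM.

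Rabs of regulated secretion and of lysosome-related organelles move granules and melanosomes to the cell surface. Their median log2 fold change was 0.19 over 11 members, with 7 positive. *Rab3d*, of exocrine secretory granules, had 5666, 7378, 8226 and 9786 counts, with both libraries labelled cKO above WT (log2 fold change 0.51, SE 0.22, unadjusted p = 0.0655 in edgeR's fit). It was 0.29 without WT 1, and without WT 2 it was 0.74 and passed the unadjusted p. *Rab44*, a large Rab of secretory granules with extra domains, had 1050, 821, 1606 and 872 counts, and its log2 fold change of 0.47 (SE 0.42) was -0.09 without cKO 1.

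*Rab37*, which is involved in exocytosis of secretory granules, had 721, 704, 465 and 283 counts. Both libraries labelled cKO were lower, with a log2 fold change of -0.87 (SE 0.42, unadjusted p = 0.0881 in edgeR's fit over all genes). Of the 6 tuft cell markers 3 were lower in the same libraries (summed level 530 and 614 against 295 and 298 CPM), and their part in this value was not tested. *Rab27b*, which with *Rab27a* docks secretory vesicles and exosome-forming bodies, had 2841, 315, 1536 and 277 counts. The first library of each group was high and the second low, so that the replicates differed by more than the groups (log2 fold change -0.70, SE 1.18). It turned to 1.56 without WT 1 and 0.07 without cKO 2. *Rab27a* showed no such split, at 4025, 3828, 3815 and 2273 counts. *Rab3c*, of neuronal synaptic vesicles, was the lowest member, with 48, 41, 0 and 58 counts. *Rab27a* and *Rab3c* are named after their values were seen.

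In the remaining 4 members, of the cilium, the ubiquitin ligase Rabs and others, log2 fold changes ran from -0.30 for *Rab40b* to 0.37 for *Rab23*, and none passed the unadjusted p.

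Replicate gaps were as large as group differences in most members. The median gap between replicates was 1.25-fold in either group, and the median difference between groups was 1.21-fold. In 15 members WT 1 and WT 2 were more than 1.5-fold apart, and in 19 members the libraries labelled cKO were. The group difference exceeded 1.5-fold in 10 members and 2-fold in 3, which were *Rab43*, *Rab20* and *Rab24*. It was larger than both replicate gaps in 16 members. The share of all genes past these limits was not counted, so these counts do not set the members apart. *Rab2a*, *Rab3b*, *Rab9b*, *Rab10* and *Rab31* were higher in WT 1 and cKO 2 than in WT 2 and cKO 1, a pattern chosen after the values were seen. *Rab10*, which acts in basolateral sorting, had 13080, 6981, 4956 and 11153 counts, and *Rab2a*, of Golgi traffic, had 6174, 2421, 2994 and 5505 counts. In these genes the libraries of a group differed more than the groups.

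**Figure D4:**
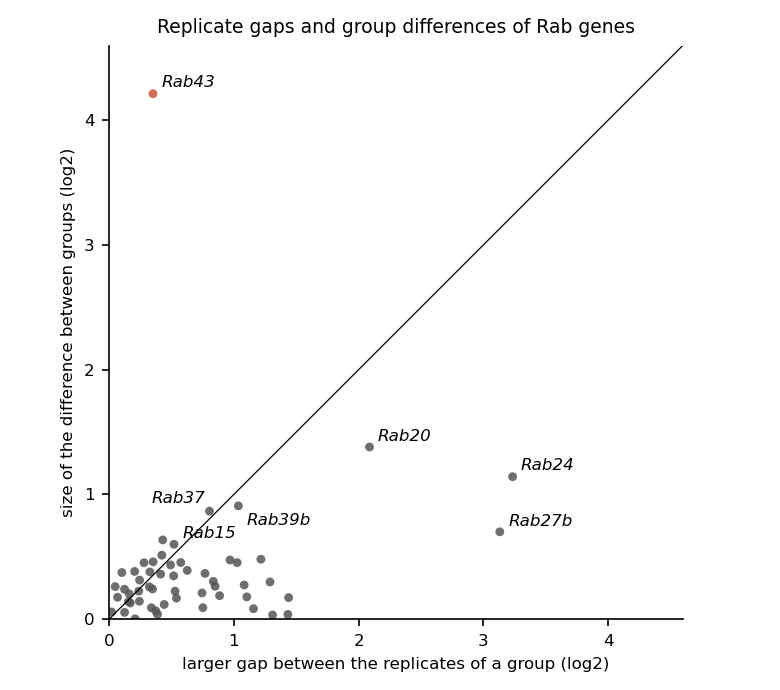
Size of the difference between groups (absolute log2 fold change) against the larger of the 2 gaps between replicates (log2 of the CPM ratio) for the *Rab* genes with a count in every library; the line marks equal values and red an unadjusted p under 0.05. *Rab43* lies far above the line and *Rab24*, *Rab27b* and *Rab20* far below it.

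The proteins that load, switch and read the Rabs were taken from a list of 182 genes, of which 179 were in the table and 178 were tested. At the unadjusted p, 18 were higher (10.1%, against 5.27% of all genes) and 1 was lower (0.562%, against 3.32%). None passed the adjusted p in edgeR (0 genes). In DESeq2 4 were higher at the adjusted p (2.25%, against 1.06% of all genes) and 0 were lower (against 0.822%). The list had a median log2 fold change of 0.10. Without cKO 1, 7 were higher and 1 lower (3.93% and 0.562%), but calls over all genes were also fewer there (2.16% higher and 1.61% lower). Scaled by library size alone, the list gave 13 higher and 4 lower genes (7.30% and 2.25%), against 3.89% and 4.52% of all genes. *Chml*, *St5*, *Sh3bp5l* and *Lrrk1*, the 4 that DESeq2 called at the adjusted p, passed the unadjusted p in all 12 alternatives, while *Tbc1d8b* and *Ccdc64* did in 3 and the others in 5 to 10.

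*Chml*, a Rab escort protein that presents new Rabs for prenylation, was the 1 of 8 genes of the GDI and prenylation class that passed. Its counts were 198, 263, 1114 and 751, with both libraries labelled cKO far above WT. The level rose from 3.58 ± 0.783 CPM to 15.1 ± 4.77 CPM (SD, n = 2 each), a log2 fold change of 2.07 (SE 0.42, adjusted p = 0.541 in edgeR and 0.00820 in DESeq2). *Chml* shares 461 exon bases with *Opn3* on the same strand.

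Of 45 exchange factors 5 were higher (11.1%, beside the 5.27% of all genes). *Rin1*, which activates Rab5, had 192, 265, 457 and 798 counts (2.82-fold, SE 0.47 on the log2 scale). *St5* (*Dennd2b*), which activates Rab13, had 7123, 9776, 14325 and 17505 counts (0.96, SE 0.23). *Dennd2c* had 907, 1055, 2016 and 1471 counts (0.89, SE 0.32). In these 3 genes both libraries labelled cKO lay above WT. *Sh3bp5l*, which activates Rab11, had 3893, 3673, 6865 and 6370 counts (0.86, SE 0.20), and its paralog *Sh3bp5* had 15092, 11319, 15960 and 22675 counts (0.60, SE 0.23). *Sh3bp5l* separated the groups widely, and in *Sh3bp5* the library cKO 1 stood close to WT 1.

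Of 39 GTPase-activating proteins 4 were higher and 1 was lower (10.3% and 2.56%, beside 5.27% and 3.32% of all genes). *Tbc1d2*, which acts on Rab7, had 664, 609, 1084 and 1582 counts (log2 fold change 1.11, SE 0.32). *Tbc1d1*, known for control of glucose transporter traffic, had 4739, 4429, 6211 and 6979 counts (0.58, SE 0.19). *Tbc1d8b* (0.70, SE 0.26) and *Rabgap1l* (0.70, SE 0.25) were higher as well. The lower gene, *Tbc1d10c*, is a regulator of lymphocyte signaling that is expressed in T cells. It had 7804, 7605, 5087 and 5148 counts (log2 fold change -0.54, SE 0.18). Its exons share 1286 bases on the same strand with *AC109138.8*. The summed thymocyte markers were at 1076, 763, 878 and 543 CPM, and their part in this value was not tested.

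Of 60 effectors tested 6 were higher (10%, beside 5.27%). *Micall2*, which binds Rab8 and Rab13 at cell junctions, had 1299, 2023, 5458 and 3068 counts (log2 fold change 1.42, SE 0.42). *Rab11fip1*, an adaptor of Rab11 recycling vesicles, had 7436, 13676, 27776 and 16744 counts (1.13, SE 0.41). In both genes cKO 1 stood well above cKO 2, and in *Rab11fip1* WT 2 came near cKO 2. The kinases *Lrrk1* (4309, 4780, 8879 and 8290 counts, log2 fold change 0.97, SE 0.20) and *Lrrk2* (988, 1348, 2136 and 2255 counts, 0.96, SE 0.29), which phosphorylate Rab proteins, both separated the groups. The dynein adaptors *Bicd2* (0.82, SE 0.23) and *Ccdc64* (0.65, SE 0.25) were also higher.

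The tethering complexes that catch vesicles had 2 of 21 genes higher (9.52%, beside 5.27%). *Vps18*, a core subunit of the HOPS and CORVET tethers of Rab7 and Rab5, had 3533, 3695, 7605 and 4932 counts (log2 fold change 0.86, SE 0.29). *Exoc4*, a subunit of the exocyst, had 2214, 2335, 4022 and 3246 counts (0.73, SE 0.25). In both genes both libraries labelled cKO lay above WT. None of 5 Rab-like GTPases passed the unadjusted p in edgeR (0 genes). No p-value of this list stood an adjustment over all genes in edgeR, where the adjusted p of the 19 genes ran from 0.541 to 0.578.

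**Figure D5:**
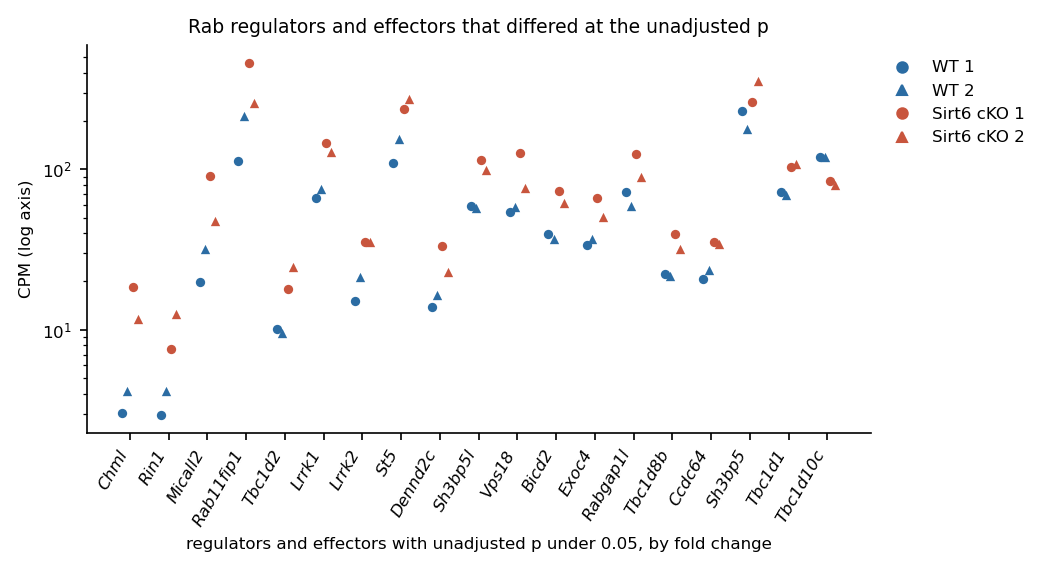
Level in CPM (log axis) of the 19 Rab regulators and effectors with an unadjusted p under 0.05, ordered by fold change, in each library; colours and symbols mark the group and library. From *Chml* to *Tbc1d1* both red points lie above both blue points, and in *Tbc1d10c* they lie below.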

How the data were processed

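RNA of sorted mTECs was sequenced in 4 libraries, 2 labelled wild type and 2 labelled Sirt6-/-. After trimming with Trim Galore, reads were mapped by the authors to mm10 (HISAT2 2.1.0) and genes quantified with StringTie 1.3.3, with versions from the submitters' processing notes. They deposited raw whole-number counts per gene and TPM, a score scaled to length and to 1000000 in each library, from which a line with the column total was left out. Annotation and strand setting of the counting are not given in the sources used here.

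Counts were tested with edgeR 4.0.16 in R 4.3.3 (TMM, filterByExpr with minimum count 10 and total 15, glmQLFit, glmQLFTest), with Benjamini-Hochberg adjustment over 18547 genes. Two-sided exact permutation tests of 2 against 2 libraries cannot go below p = 0.333 and were not used. CPM was scaled by TMM factors. Intervals are 95% from the standard error. Alternatives were DESeq2 1.42.0, no filter, TPM over 0.1 in all libraries, upper quartile, library size alone, a replicate block, limma 3.58.1 on log2(TPM + 1) and log2(TPM + 0.1), and each library left out, where a lone library is assumed to vary like the other group. The fits were tested on simulated counts with less spread between replicates than was estimated over all genes here (biological coefficient of variation 0.557). That test therefore does not give their error rates in these data. Positions and exon overlaps come from GENCODE M21 (GRCm38), promoters from RefSeq.

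The members, gene lists and tests were chosen with earlier results of these data known. Named are *Rab* genes with an unadjusted p under 0.05, the 6 largest fold changes in each direction, the 8 highest by TPM, *Sirt6*, and regulators with an unadjusted p under 0.05. Role groups are hand-written. The numbers of reads behind single values limit precision, and a count of 0 covers counting error only.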

Additional observations from a re-analysis of the deposited data

How the results depend on the processing

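*Rab43* kept its direction and an unadjusted p under 0.05 in all 12 alternatives, with log2 fold changes from 2.61 with limma on log2(TPM + 1) to 4.40 without WT 2. Its adjusted p ran from 9.4e-15 in DESeq2 to 0.799 without cKO 1. The count of higher members was 2 with DESeq2, with the TPM filter and with the block, and 1 to 2 with a library left out. The second gene was *Rab15*, or *Rab9b* without WT 1 and *Rab3d* without WT 2. The count of lower members was 0 to 2 with a library left out, with *Rab5a* and *Rab24* called without cKO 2. The count past the adjusted p was 1 in DESeq2. The median of the members was 0.034 with upper quartile scaling, 0.030 with library size alone, and 0.039 to 0.14 with a library left out. The median of all genes moved with the scaling, to -0.086 and -0.093, so that the members lay 0.12 above it in both, as in the fit reported. With a library left out, the members lay between 0.045 (without WT 1) and 0.17 (without cKO 1) above the median of all genes. The upper quartile gave 48.4% of all calls as higher, library size alone 46.2%, and limma 51.0% and 51.2%, against 61.4%. *Sirt6* kept its direction in all 12, from 0.19 to 0.54.

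The labels do not say whether the same replicate numbers pair the libraries. With 2 libraries a group, the correlation below is 1 contrast and cannot settle it. The correlation of the deviations of WT 1 and cKO 1 from their group means was -0.054 over 18547 genes. With the number as a replicate block, 2 members were higher, 10 regulators and effectors passed the unadjusted p against 19 (5.62% against 10.7%, where all genes had 6.18% against 8.58%), and the adjusted p of *Rab43* was 0.769. The count of regulators and effectors was 8 to 20 with a library left out, and that of all genes was 735 to 1762, with both lowest without cKO 1.

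Among the *Rab* genes named by the rule above, the sign of 4 weak values turned. The signs of the other members were not followed through the alternatives. With a library left out, *Rab9b* ran from -0.34 without WT 2 to 9.74 without WT 1, where it is set against a count of 0, and was -0.18 without cKO 2. *Rab44* ran from -0.087 without cKO 1 to 0.86, and *Rab27b* from -2.48 to 1.56 without WT 1. *Rab7*, at 0.0021, was -0.010 with DESeq2, -0.0020 with the TPM filter, -0.077 with upper quartile, -0.085 with library size alone and -0.0052 with both limma fits, and ran from -0.097 to 0.086 with a library left out. The cause was not tested. At this depth, with 2 libraries a group, the 95% interval lay within 2-fold in 20 of 57 members.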
